A study of Mus musculus with 11 samples.

Results

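Solute carriers, the membrane proteins that move ions, nutrients, metals and metabolites across the plasma membrane and the membranes of organelles, were examined in intermediate progenitors (IPs) of the embryonic mouse cortex that lacked TBR2. The members were the array probes whose gene symbol began with Slc and a digit, apart from those of Slc1a3, Slc12a2 and Slc12a5, and they were selected on detection, with a detection p-value under 0.05 on all 11 arrays. Of 45281 probes on the array, 652 named 356 such genes. After 7 probes of those 3 genes were set aside, 645 probes of 353 genes were considered, and 203 probes of 145 genes met the rule. A further 295 considered probes were detected on no array and 147 on 1 to 10 arrays, so that 208 genes had no member probe. Of the 145 member genes, 105 were read by 1 member probe and 40 by 2 or more.

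The cells were IPs marked by the Tbr2-EGFP reporter and purified by fluorescence-activated cell sorting from the cortex of Tbr2 conditional knockout (cKO) embryos, which were made with the Tbr2 fl/fl allele. The arrays were of the cKO at embryonic day 13 (E13, n = 5) and embryonic day 16 (E16, n = 6), and all 11 shared the reporter and the deleted allele, with no further treatment. The methods name Emx1-Cre, which acts in the dorsal telencephalon, for the cKO cortex, and litters that are not assigned to single arrays. Embryos of 1 litter would not be independent, and the p-values below measure the spread between arrays. Stage was the only contrast, and control arrays were not analysed here. The probe of Eomes, the gene of TBR2, was detected on all arrays, but it is not stated whether it lies in the deleted part, so it does not check the deletion.

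Carriers of this kind do not burn ATP themselves. Most of them couple the movement of their substrate to a gradient of sodium, protons or another solute, or let it run down its own gradient, and the gradients come from pumps such as the Na,K-ATPase and the vacuolar proton pump. In the developing cortex, dividing progenitors draw glucose, amino acids, nucleosides and vitamins for growth, while their neuronal daughters put in place vesicular glutamate transporters, ion exchangers and carriers for creatine and choline. In bulk samples of this kind, fewer cells of a type and less RNA per cell cannot be told apart.

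Detection itself was the measure that chose the members and is given only as a description. Those closest to the limit were Slc45a1 (ILMN_3163567), with a highest detection p-value of 0.0449, and Slc7a13 (ILMN_1222927) and Slc66a1 (ILMN_2725548), both with 0.0459. Just outside were Slc12a9 (ILMN_2659574) with 0.0513 and Slc37a1 (ILMN_1214066) and Slc7a8 (ILMN_2598877) with 0.0524, each detected on 10 arrays. The mean signal of the Slc7a8 probe was 36.5 at E13 against 85.4 at E16, so that the rule can leave out a carrier that is dim at 1 stage. Of all considered probes, 1 was found on all 5 E13 arrays but none at E16, Slc41a3 (ILMN_3154553), and 1 on all 6 E16 arrays but none at E13, Slc44a1 (ILMN_1241827). Several familiar carriers were among the genes without a member: Slc7a11, Slc1a5 and Slc16a1 were detected on at most 1 array, Slc32a1, which loads GABA into vesicles, on 7, and Slc1a2, the astrocytic glutamate transporter, on 10.

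Marker genes of other cells differed between arrays, and their part in the results below was not tested. Radial glial markers (10 of 10 on the array, 7 detected on all arrays, none undetected throughout) had a summed signal of 3109 to 4982 at E13 and 1169 to 2027 at E16, without overlap, and 2 of the 7 tested were called lower at E16. Vim had the largest part of these sums, with means of 2581 at E13 and 755 at E16. Pax6 (29.2 and 48.6) and Fabp7 (36.4 and 44.2) had higher means at E16, and the other listed markers had lower ones. On E13 array 64, the sum over 6 erythroid genes reached 26462, against at most 506 on the other E13 arrays, and it was 700.5 to 7749 at E16. The same array had the highest E13 sums of endothelial, radial glial, microglial, meningeal and interneuron markers. E16 array 97 had the highest E16 sums of erythroid, radial glial, microglial, meningeal and interneuron markers. Of 16 endothelial and pericyte markers 4, Mfsd2a, Egfl7, Esam and Cspg4, were detected on all arrays and 3, Tie1, Rgs5 and Abcb1a, on none. Of 8 microglial markers none was detected on all arrays and 3, Tyrobp, Ptprc and Spi1, on none, while Aif1 was detected on 4 E13 and 5 E16 arrays and Csf1r on 4 and 4. Of 8 IP markers 7 were detected on all arrays, as were all 7 measured neuronal markers. Over the 203 members, array 64 had the highest median absolute deviation from its stage, 0.244 on the log2 scale against 0.14 to 0.237 on the other arrays, and it was the highest or lowest E13 array for 95 members, against 55 to 89 for the other E13 arrays. Xist, which is transcribed in female cells, was counted as detected where at least 3 of its 4 probes were detected. This was so on 2 E13 and 5 E16 arrays, unevenly between the stages. Its detection was used as a covariate in a fit added after seeing the data.

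Between E13 and E16, 12 of the 203 solute carrier probes were called higher and 7 lower in the Tbr2 mutant IPs, where a call is an adjusted p under 0.05 from limma over all 16411 probes detected on all arrays together with a change of more than 1.5-fold. The shares were 5.91% and 3.45% of the members, beside 5.17% and 6.09% of all tested probes, and 9.36% beside 11.3% for both directions together. Without a fold threshold, 21 members (10.3%) were higher, beside 8.52% of all probes, and 14 (6.9%) were lower, beside 9.41%. The signals of both stages did not overlap for 17 members that were higher at E16 (8.37%, beside 5.38%) and for 8 that were lower (3.94%, beside 6.34%). The median log2 fold change, taken as E16 minus E13 throughout, was 0.084 over the members and 0.0094 over all tested probes. These shares lie near the background, so the carriers as a group are described here by their single members. Of the 19 calls, 11 held without a detection filter and 13 with Xist detection as a covariate. Log2 fold changes above 0, counted by class below, were seen in 120 of the 203 members and in 8395 of all 16411 tested probes. Probes of 1 gene are not independent in such counts.

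**Figure D1:**
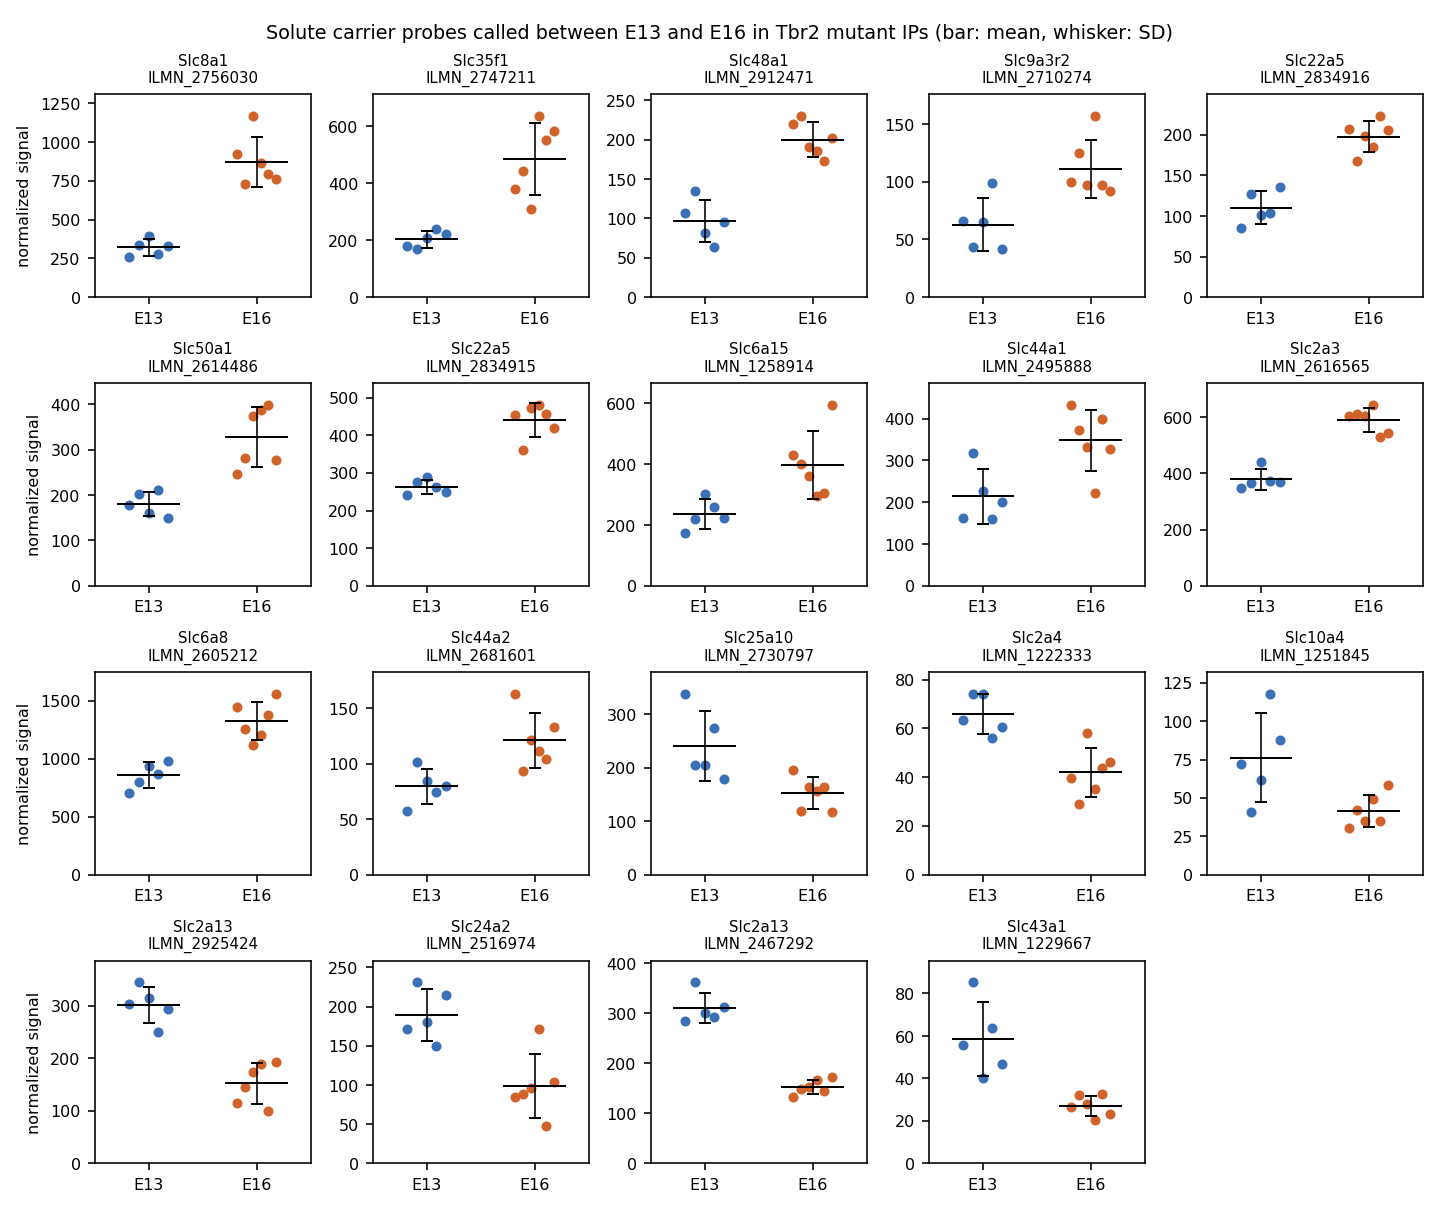
Normalized signal (linear scale) of the 19 called solute carrier probes on each of the 5 E13 and 6 E16 arrays, 1 point per array, with the mean as a bar and the SD as a whisker. The 12 probes higher at E16 come first, from Slc8a1 with a log2 fold change of 1.44 downwards, and the 7 lower ones end with Slc43a1 at -1.08.

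The largest rise among the carriers was in an exchanger that removes calcium from the cell. Slc8a1 (ILMN_2756030), the sodium/calcium exchanger of the plasma membrane, had normalized signals of 260.4, 338, 397, 279 and 329.6 on E13 arrays 37, 40, 61, 64 and 65, the order used for all E13 values below. At E16 its signals ran from 729 to 1167 with a median of 827. Every E16 array lay above every E13 array, and the log2 fold change was 1.44 ± 0.14 (SE, adjusted p = 1.79e-05 from limma), a 2.72-fold rise. A second Slc8a1 probe (ILMN_2448213) read 219, 151, 308, 335 and 346 at E13 and from 304 to 674 with a median of 413 at E16, with overlapping stages and a log2 fold change of 0.73. It missed the threshold with an adjusted p of 0.0511 from limma and passed it, with adjusted p from 0.0336 to 0.0497, without E13 array 64 or 65 or E16 array 95 or 97. It also passed, with adjusted p from 0.0323 to 0.0495, with a modelled (normexp) background, median scaling, detection in at least 1 stage, array weights or the Xist covariate. The opposite direction was seen in a carrier of related function: Slc24a2 (ILMN_2516974), which exchanges sodium for calcium and potassium, read 172, 231, 181, 149.7 and 215 at E13 and from 47.6 to 172 with a median of 92.2 at E16. Its log2 fold change was -1.03 ± 0.26 (SE, adjusted p = 0.0132 from limma), and the single E16 array above the lowest E13 array was array 91, at 172. The call was lost without a detection filter, at an adjusted p of 0.0747, and with the Xist covariate, at 0.0648.

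The other carriers of inorganic ions and protons were not called. The 24 probes of this class had a median log2 fold change of 0.065, with 13 above 0. All 4 probes of Slc4a3, a chloride/bicarbonate exchanger of excitable cells, had positive log2 fold changes, from 0.41 to 0.69, and none passed the test. The brightest (ILMN_2675029) had 0.46 with an adjusted p of 0.165 from limma. Its E16 signals ran from 424 on array 97 to 1330 on array 11. These arrays lay 0.96 below and 0.89 above the median of the other E16 arrays on the log2 scale. Without array 97 the change was 0.63 with an adjusted p of 0.0243 from limma, a value that leaves out only the low end of this spread. The 4 probes of Slc4a8, a sodium-driven bicarbonate carrier, lay between -0.17 and 0.06.

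Among the metal carriers, the heme transporter Slc48a1 rose. Slc48a1 (ILMN_2912471), which moves heme out of endolysosomes, read 107, 135, 82.1, 64.2 and 95 at E13 and from 173 to 230.2 with a median of 197 at E16. The stages did not overlap and the log2 fold change was 1.09 ± 0.18 (SE, adjusted p = 0.000885 from limma). It was the single call among 28 probes of metal and heme carriers, of which 22 had a positive log2 fold change with a class median of 0.15. All 10 probes of the Slc30 family, which export zinc or manganese from the cytosol, were above 0, from 0.016 to 0.49, and none was called. These probes read only 6 genes, and 3 of them were of Slc30a10. The 11 probes of the Slc39 family, which bring zinc into the cytosol, read 8 genes and split into 6 above and 5 below 0 with a median of 0.013. A difference between the families was not tested. Slc30a9 (ILMN_1256917) had no overlap between the stages, with from 65.9 to 92.5 at E13 and from 93.2 to 124 with a median of 99.9 at E16, yet its log2 fold change of 0.33 had an adjusted p of 0.129.

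Sugar carriers changed in both directions, with 2 of 14 probes higher and 3 lower. Slc2a3 (ILMN_2616565), the neuronal glucose transporter GLUT3, read 347, 364, 439, 373 and 368 at E13 and from 529.6 to 644 with a median of 605 at E16, with no overlap and a log2 fold change of 0.64 ± 0.10 (SE, adjusted p = 0.00062 from limma). The spread of this rise was small, since E16 signals had an SD of 44.3 around a mean of 589.5 (n = 6). Slc50a1 (ILMN_2614486), a sugar efflux carrier of the SWEET type, read 178, 203, 159.6, 212 and 148 at E13 and from 245 to 399 with a median of 329 at E16, again without overlap, and changed by 0.85 ± 0.16 (SE, adjusted p = 0.0025 from limma). Slc2a1 (ILMN_1258159), the glucose transporter GLUT1 of the blood-brain barrier and of many dividing cells, read 601, 522, 483, 774 and 608 at E13 and from 439 to 651 with a median of 536 at E16. Its stages overlapped, and its log2 fold change of -0.15 had a 95% confidence interval from -0.44 to 0.14 and an adjusted p of 0.488.

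The most concordant fall among the carriers was in Slc2a13, which takes up myo-inositol together with protons. Its probe ILMN_2467292 read 285, 362, 301, 293 and 313 at E13 and from 132 to 172 with a median of 150.0 at E16, and its probe ILMN_2925424 read 304, 344, 315, 250.3 and 293 at E13 and from 100.3 to 193 with a median of 159 at E16. Neither probe overlapped between the stages. The log2 fold changes were -1.03 ± 0.12 (SE, adjusted p = 5.99e-05 from limma) and -1.02 ± 0.18 (SE, adjusted p = 0.00165 from limma), both near a halving of the signal, and Slc2a13 was the only one of the 40 genes with several member probes for which all member probes were called. Slc2a4 (ILMN_1222333), the insulin-regulated transporter GLUT4, was dim, with 63.7, 74.4, 74.1, 55.9 and 60.7 at E13 and from 29 to 58.1 with a median of 41.9 at E16. Its log2 fold change was -0.67 ± 0.19 (SE, adjusted p = 0.0234 from limma). That call was lost without E13 array 40 or 61 or E16 array 91, with adjusted p from 0.0506 to 0.0619, and without E16 array 15, where the change of -0.57 was under 1.5-fold. It was also lost without a detection filter, at an adjusted p of 0.0927, and with normexp background, where the change was -0.50.

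Of 27 probes of amino acid carriers, 1 was higher and 1 lower, around a class median of 0.17 with 18 probes above 0. Slc43a1 (ILMN_1229667), a facilitated carrier of large neutral amino acids such as leucine, had the largest fall of all members in the main fit. It read 55.9, 85.3, 40.4, 64 and 46.7 at E13 and from 20.6 to 32.5 with a median of 27.1 at E16, so that the stages did not overlap although the probe was dim, and its log2 fold change was -1.08 ± 0.21 (SE, adjusted p = 0.00282 from limma). With normexp background its change was -0.76 and the call held. Under the alternatives the Slc2a13 probe ILMN_2467292 ran from -1.07 to -0.953, so the ranking depends on the processing. The Slc43a1 probe was not among those tested at detection p under 0.01. Slc6a15 (ILMN_1258914), a sodium-dependent carrier of branched-chain amino acids in neurons, read 172, 219.7, 303, 258 and 224 at E13 and from 294 to 595 with a median of 379.9 at E16. Its log2 fold change was 0.74 ± 0.19 (SE, adjusted p = 0.0163 from limma), with a slight overlap of the stages, and its dim second probe (ILMN_1228104) had 0.06 with an adjusted p of 0.855. The call of the first probe was lost without a detection filter, at an adjusted p of 0.0725, with the Xist covariate, at 0.0709, and with array weights, where the change of 0.57 was under 1.5-fold.

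Glutamine carriers of the Slc38 family were positive in 10 of 12 probes, which read 6 genes, with a family median of 0.25, and none was called. Slc38a2 (ILMN_1244123), the brightest amino acid carrier probe by its mean signal, read 5511, 6678, 5738, 5649 and 7307 at E13 and from 5841 to 10364 with a median of 7705 at E16, and its log2 fold change was 0.34 with an adjusted p of 0.0824. A second Slc38a2 probe (ILMN_2955671) had 0.22 and 0.182. Slc3a2 (ILMN_2595359), the heavy chain that carries several Slc7 light chains to the cell surface, had -0.06 with an interval from -0.63 to 0.51, and Slc1a4 (ILMN_2888552), an exchanger of alanine, serine and cysteine, 0.11 with an interval from -0.13 to 0.36. Both intervals are at the 95% level, and that of Slc3a2 reaches past a 1.5-fold decrease.

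The rises among carriers of other organic solutes were in a carnitine and a creatine carrier of the plasma membrane, while both probes of Slc25a20, the mitochondrial carnitine/acylcarnitine carrier, were not called, with log2 fold changes of 0.035 and 0.053. Slc22a5, the sodium-dependent carnitine transporter OCTN2, was read by 3 probes. ILMN_2834915 gave 241, 275, 289, 262 and 250.0 at E13 and from 359.7 to 481 with a median of 456 at E16, and ILMN_2834916 gave 84.9, 127, 101, 104 and 136 at E13 and from 167 to 223 with a median of 202 at E16. In both probes every E16 array exceeded every E13 array, with log2 fold changes of 0.74 ± 0.11 (SE, adjusted p = 0.000444 from limma) and 0.86 ± 0.15 (SE, adjusted p = 0.00134 from limma). The third probe (ILMN_2651273) was dim, from 30.6 to 77.8 at E13 and from 23.8 to 64.3 with a median of 52.6 at E16, and had -0.13 with an adjusted p of 0.813. Slc6a8 (ILMN_2605212), the creatine transporter on the X chromosome, read 702, 800.4, 935, 870.1 and 979 at E13 and from 1114 to 1562 with a median of 1314 at E16, without overlap and with a log2 fold change of 0.63 ± 0.11 (SE, adjusted p = 0.00166 from limma). Its change is close to the fold limit: without E13 array 37 it was 0.56 and without E16 array 97 it was 0.58, and the call was lost there although the adjusted p stayed at 0.0056 and 0.00372. It was also lost with array weights, where the change was 0.54.

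Within the same class of 18 probes, which had 3 rises, 1 fall and a median of -0.069, the fall was in Slc10a4 (ILMN_1251845), a carrier of the bile acid family found on synaptic vesicles. It read 72.4, 40.9, 61.7, 118 and 87.9 at E13 and from 30.6 to 58.4 with a median of 38.5 at E16. The stages overlapped through E13 array 40, and the log2 fold change was -0.82 ± 0.26 (SE, adjusted p = 0.041 from limma). This call did not hold when E13 array 37, 61, 64 or 65 or E16 array 11, 15, 80 or 95 was left out alone, with adjusted p from 0.0582 to 0.101, and without E13 array 64 the change was -0.64. It was also lost without a detection filter, in the unmoderated test and with the Xist covariate, with adjusted p of 0.168, 0.0816 and 0.125. Slc22a17 (ILMN_2746664), a receptor for lipocalin and the brightest probe of the class, had 0.28 with an adjusted p of 0.2.

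Choline carriers accounted for both rises among 17 probes of nucleoside, vitamin and cofactor carriers, a class with a median of 0.27 and 13 probes above 0. Slc44a1 (ILMN_2495888), a choline transporter-like protein, read 163, 319, 228, 160.2 and 199.7 at E13 and from 223 to 433 with a median of 353 at E16, with some overlap and a log2 fold change of 0.72 ± 0.20 (SE, adjusted p = 0.025 from limma). Without E13 array 37 it was 0.63 (adjusted p = 0.0711 from limma) and without E13 array 64 it was 0.63 (adjusted p = 0.0652 from limma), and the call was lost. It was also lost without a detection filter, at an adjusted p of 0.106, in the unmoderated test, at 0.0602, and with the Xist covariate, where the change was 0.54 with an adjusted p of 0.1145. The related Slc44a2 was read by 3 probes. The brightest (ILMN_2599719) read 974, 1022, 1175, 1064 and 1109.9 at E13 and from 1359.7 to 1519.8 with a median of 1420.3 at E16, with no overlap, and its 0.42 had an adjusted p of 0.00251 but stayed under 1.5-fold. ILMN_2681601 had 0.61 with an adjusted p of 0.036 and was called, and ILMN_1232195 had 0.12. The call of ILMN_2681601 was lost on leaving out E13 array 37, 61, 64 or 65 or E16 array 11, 80, 91 or 97, with adjusted p from 0.0529 to 0.0994. It was also lost without a detection filter, at 0.0865, with the Xist covariate, at 0.127, and with normexp background or array weights, where the changes were 0.53 and 0.51. Of the equilibrative nucleoside carriers, Slc29a1 had 0.36 (ILMN_2888144) and -0.0028 (ILMN_2638299), and Slc29a4 (ILMN_1240973), which also takes up monoamines, had 0.23 with an adjusted p of 0.114; none was called.

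The Slc35 family, whose best known members bring nucleotide sugars and sulfate donors into the endoplasmic reticulum and Golgi, held the second largest rise. Slc35f1 (ILMN_2747211) read 179.6, 168, 206, 239.7 and 222 at E13 and from 309 to 635 with a median of 499 at E16. The stages did not overlap, and the log2 fold change was 1.22 ± 0.19 (SE, adjusted p = 0.000471 from limma). The other 21 probes of the family were not called, and 11 of 22 were above and 11 below 0 around a median of 0.038. Movement below the fold limit was seen in both directions: 2 of 3 probes of Slc35b3, which imports the sulfate donor PAPS into the Golgi, had 0.37 with adjusted p of 0.0328 and 0.044, and Slc35c2 (ILMN_2729374) had -0.43 with 0.00671. Slc35b1 (ILMN_2495289), the brightest of the family, was at -0.04 with a 95% confidence interval from -0.27 to 0.19.

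The Slc25 family, most of whose members are mitochondrial carriers, was the largest class, with 38 probes of 28 genes, and 1 was called. It was taken whole and is named the mitochondrial class here. Slc25a10 (ILMN_2730797), the dicarboxylate carrier that exchanges malate or succinate for phosphate, read 339, 205, 204, 274 and 178 at E13 and from 117 to 196 with a median of 160.2 at E16, with overlap and a log2 fold change of -0.64 ± 0.19 (SE, adjusted p = 0.0347 from limma). The call was lost without E13 array 37 or 64 or E16 array 15, 91 or 97, with adjusted p from 0.0535 to 0.097. It was also lost without a detection filter, in the unmoderated test, with the Xist covariate and without both E13 array 40 and E16 array 80, with adjusted p of 0.117, 0.064, 0.0862 and 0.0549, and with normexp background or array weights, where the change was under 1.5-fold. Without the fold threshold 5 probes of the class were lower and 1 was higher. Slc25a5 (ILMN_2660099), the ADP/ATP exchanger of dividing cells and the brightest of the class, read 12418, 10349, 11079, 11494 and 10349 at E13 and from 8095 to 9742 with a median of 8774 at E16. Its stages did not overlap, and its log2 fold change of -0.33 had an adjusted p of 0.00655 at a fold of 1.25. A probe of the aspartate/glutamate carrier Slc25a12 (ILMN_2474684) likewise did not overlap, with -0.57 and 0.0139. The brighter other probe of Slc25a12 (ILMN_2972855) changed less, by -0.19, and its stages overlapped, around medians of 614 (E13) and 540 (E16). The class median was 0.042 and did not keep its sign under other processing, which was also so for the medians of the ion, Slc35, transmitter and other organic solute classes.

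Carriers that load or recover transmitters were not called in any of 6 probes. Slc17a6, the vesicular glutamate transporter VGLUT2, was read by 2 bright probes. ILMN_2922321 read 6753, 8106, 7290.0, 6138 and 8164 at E13 and from 5817 to 9089.9 with a median of 7307 at E16, and ILMN_2773047 read 6367, 8049, 7228, 6272 and 7976 at E13 and from 6151 to 8796 with a median of 7135 at E16. Their log2 fold changes were 0.0052 and 0.0074, with 95% confidence intervals from -0.23 to 0.24 and from -0.21 to 0.22, both inside a 1.5-fold change. Slc1a1, a neuronal glutamate transporter, had 0.19, and Slc6a9, the glycine transporter GLYT1, had -0.46 with an adjusted p of 0.087. The 3 probes of organic acid carriers, 2 of Slc16a13 and 1 of Slc16a9, lay between -0.20 and -0.054, the brighter Slc16a13 probe (ILMN_1212959) at -0.12.

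**Figure D2:**
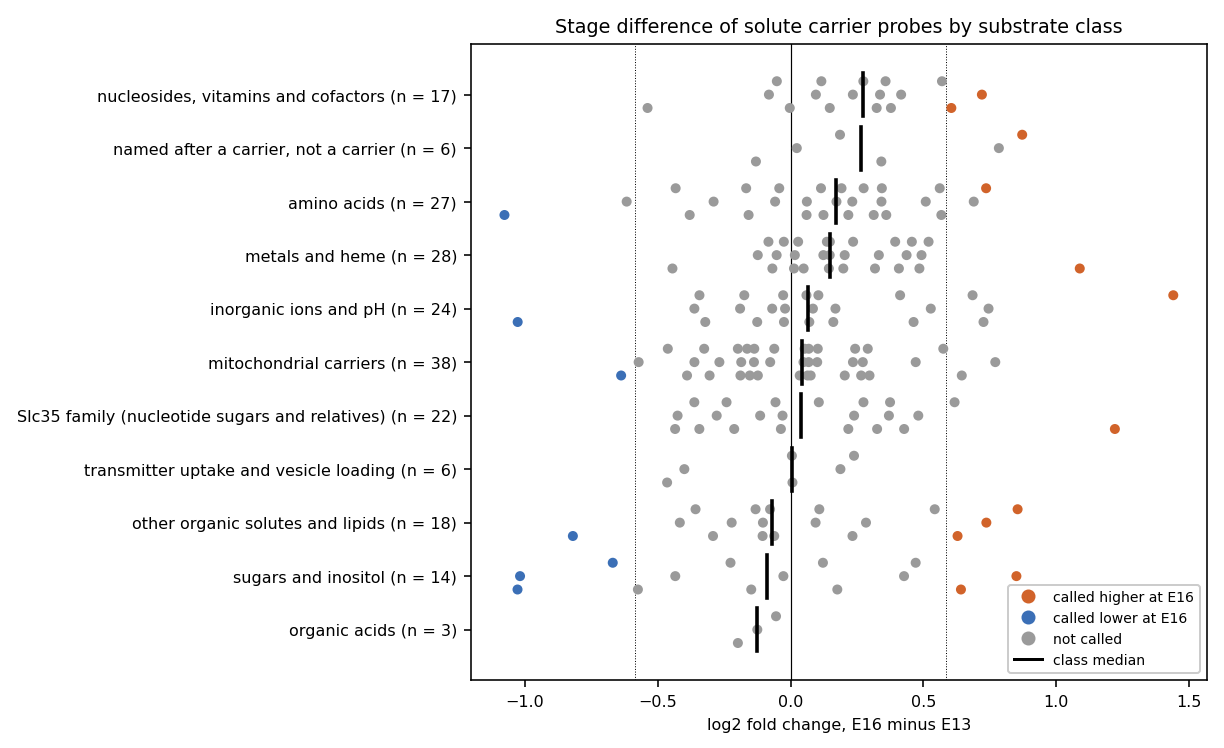
Log2 fold change (E16 minus E13) of each of the 203 solute carrier probes by substrate class, 1 point per probe, with the class median as a black bar and dotted lines at a 1.5-fold change. Class medians run from -0.12 for 3 probes of organic acid carriers to 0.27 for 17 probes of nucleoside, vitamin and cofactor carriers, while single probes reach 1.44 and -1.08.

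The 6 probes of genes that are named after a carrier but encode no transporter included 1 call. Slc9a3r2 (ILMN_2710274), a scaffold protein that anchors a sodium/proton exchanger and other membrane proteins, read 65.7, 43.3, 64.9, 99 and 41.3 at E13 and from 92.3 to 157 with a median of 98.7 at E16. The highest E13 signal was on array 64, and the log2 fold change was 0.87 ± 0.23 (SE, adjusted p = 0.0184 from limma). The call was lost without a detection filter, at an adjusted p of 0.0755, and without both E13 array 40 and E16 array 80, at 0.0584. Slc4a1ap (ILMN_2969435) had -0.13 with an adjusted p of 0.363.

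Promoters are shown for members with the largest changes for which RefSeq gave a start site, 2 that rose and 2 that fell, so that members moving together can be set side by side. The windows are from RefSeq on GRCm38.p6, each of 300 bases around the annotated start and mostly upstream of it, 5′ to 3′ on the strand of the gene. The 4 windows lie at chr17:81738338-81738637 (minus strand) for Slc8a1, chr10:52690251-52690550 (plus strand) for Slc35f1, chr15:91573212-91573511 (minus strand) for Slc2a13 and chr2:84840073-84840372 (plus strand) for Slc43a1. The Slc43a1 window lies inside the gene's RefSeq span, which begins at chr2:84838855, so the start it surrounds is an internal one. Capitals mark matches, on either strand, to the T-box letters AGGTGTGA, the E-boxes CAGCTG and CAGATG, the GC box GGGCGG and the TATA box TATAAA, which do not overlap each other in these windows.
Slc8a1: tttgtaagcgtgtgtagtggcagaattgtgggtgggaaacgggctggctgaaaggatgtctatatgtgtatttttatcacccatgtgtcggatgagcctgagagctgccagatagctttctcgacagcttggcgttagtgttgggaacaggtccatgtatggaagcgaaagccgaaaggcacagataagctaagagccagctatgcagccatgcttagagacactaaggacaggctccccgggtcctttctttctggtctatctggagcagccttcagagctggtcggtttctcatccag
Slc35f1: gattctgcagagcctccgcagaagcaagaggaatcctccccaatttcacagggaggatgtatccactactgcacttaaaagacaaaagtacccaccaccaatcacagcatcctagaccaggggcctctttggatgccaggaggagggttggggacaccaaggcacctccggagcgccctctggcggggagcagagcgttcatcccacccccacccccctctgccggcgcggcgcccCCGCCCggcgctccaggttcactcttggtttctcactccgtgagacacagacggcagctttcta
Slc2a13: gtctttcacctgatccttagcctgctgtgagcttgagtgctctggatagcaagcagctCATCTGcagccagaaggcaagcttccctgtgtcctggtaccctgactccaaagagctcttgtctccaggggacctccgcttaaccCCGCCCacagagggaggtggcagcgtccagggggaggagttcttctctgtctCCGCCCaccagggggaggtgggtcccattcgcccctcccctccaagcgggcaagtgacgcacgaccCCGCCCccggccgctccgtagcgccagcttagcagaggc
Slc43a1: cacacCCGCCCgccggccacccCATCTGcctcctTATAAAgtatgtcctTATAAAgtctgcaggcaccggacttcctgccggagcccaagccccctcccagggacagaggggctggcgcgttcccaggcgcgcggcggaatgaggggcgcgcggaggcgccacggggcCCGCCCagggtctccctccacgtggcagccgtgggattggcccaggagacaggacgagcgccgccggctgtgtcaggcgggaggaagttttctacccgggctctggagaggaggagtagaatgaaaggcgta
The Slc8a1 window held none of the motifs, that of Slc35f1 held 1 GC box, that of Slc2a13 held 3 GC boxes and 1 CAGATG E-box, and that of Slc43a1 held 2 TATA boxes, 2 GC boxes and 1 CAGATG E-box.

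A window was matched for 119 of the 145 member genes, with 163 windows in all. The T-box letters, the kind of site that TBR2 binds, were in 1.23% of the members' windows. They were in 0.791% of 9486 windows of genes with a tested probe and in 1.28% of all 32851 windows. None of the 16 windows of called genes held them, and at such shares a set of 16 would mostly hold none. GC boxes were in 74.8% of the members' windows, in 64.3% of those of genes with a tested probe and in 35.7% of all. TATA boxes were in 6.75%, 6.62% and 13.6%, CAGCTG in 16.6%, 14.5% and 16.3%, and CAGATG in 12.9%, 11.1% and 17.2%. Called genes had 10 windows for those higher at E16 and 6 for those lower, and some genes had more than 1 window. In these, GC boxes were in 7 and 4, CAGCTG in 4 and 1, CAGATG in 1 and 2, and TATA boxes in 0 and 2. These small counts were not compared by a test. All are matches of letters and were not tested as sites.

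Different probes of 1 gene did not always move alike. Over the 40 genes with several member probes, the median gap between the highest and the lowest log2 fold change of a gene was 0.19, and 8 genes had probes on both sides of 0. Calls were mixed in 4 genes, Slc8a1, Slc22a5, Slc6a15 and Slc44a2. The gap was widest for Slc22a5 at 0.987, followed by Slc38a10 at 0.98, where ILMN_2578541 had 0.69, ILMN_2729743 had 0.12 and ILMN_2430203 had -0.29, none of them called. In Slc45a4, ILMN_1232055 was higher at every E16 array than at any E13 array, with 0.43 and an adjusted p of 0.0439, while ILMN_2886162 had -0.43 with 0.117. The annotation used here does not say which transcript each probe reads, so a gene's level is given by probe.

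**Figure D3:**
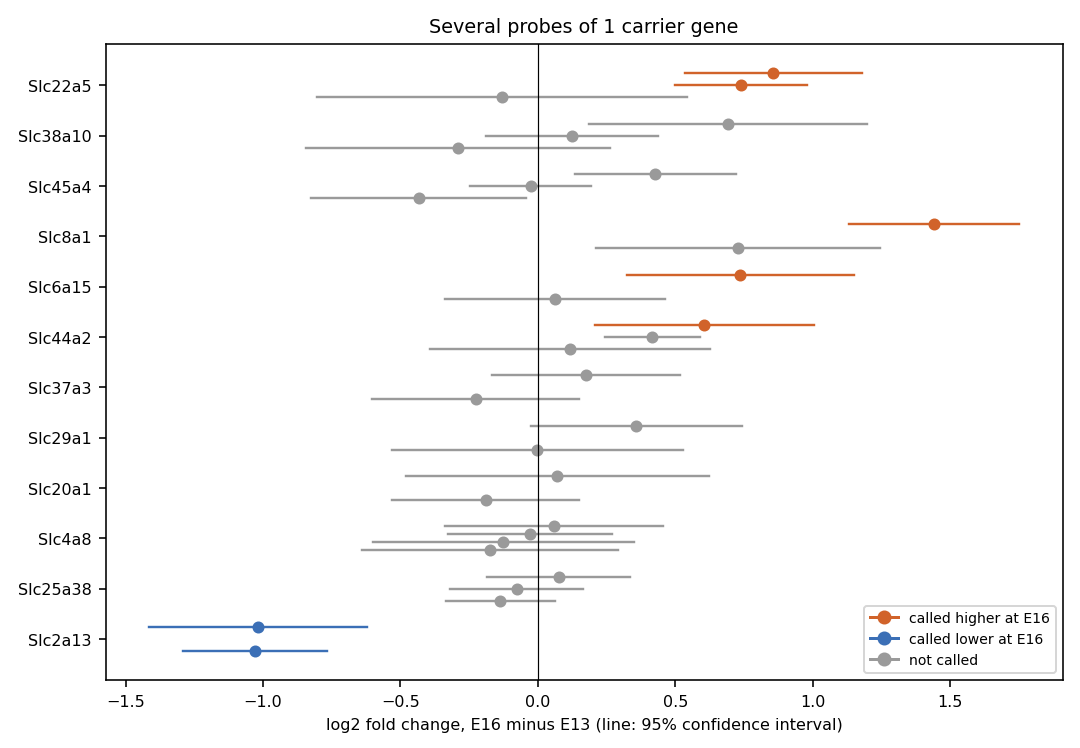
Log2 fold change (E16 minus E13) with its 95% confidence interval for each member probe of 12 genes, those with several member probes of which at least 1 was called or whose probes lay on both sides of 0. The probes of Slc2a13 coincide near -1.03 and -1.02, whereas those of Slc22a5 span 0.987 and the 2 of Slc8a1 stand at 1.44 and 0.73.

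The widest spread within a stage was in Slc17a7 and Slc30a10, and it came from the same arrays. Slc17a7 (ILMN_2618244), the vesicular glutamate transporter VGLUT1, read 52.1, 302, 73.6, 51.3 and 49.8 at E13 and from 38.9 to 112 with a median of 59.7 at E16. E13 array 40 had the highest level at E13 and E16 array 80 the highest at E16. Slc30a10, which exports manganese from the cell, showed the same on E13 array 40 in all 3 member probes: ILMN_2812926 read 341, 1147, 386, 188 and 427 at E13, ILMN_1243252 read 52.9, 215, 53.4, 33.2 and 55.3 and ILMN_2445236 read 24.4, 159, 62.4, 31.9 and 50.0. At E16 array 80 was highest for ILMN_2812926 at 873 and for ILMN_1243252 at 143, and was below array 97 for ILMN_2445236, at 118 against 123. The log2 fold changes were -0.40 for Slc17a7 and 0.44, 0.14 and 0.49 for Slc30a10, none of them called. Without E13 array 40 they were 0.086 for Slc17a7 and 0.81, 0.58 and 0.89 for Slc30a10, of which ILMN_2812926 was then called higher at E16 with an adjusted p of 0.0409. Without both E13 array 40 and E16 array 80 its log2 fold change was 0.68 with an adjusted p of 0.0699. E13 array 40 also had the highest E13 sum of 7 neuronal markers, 38030 against 26657 to 35724, and E16 array 80 the highest at E16, 32973 against 21156 to 30635.

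Slc38a1, a glutamine carrier of neurons, set 2 other arrays apart. Its probe ILMN_1219573 read 223, 252, 272, 124 and 236 at E13 and from 192 to 438 with a median of 250.3 at E16, ILMN_1243473 56.1, 71.4, 65.4, 37.2 and 55.9 and from 43.7 to 126 with a median of 58.6, and ILMN_2558167 91.6, 99.5, 106, 50.3 and 106 and from 75.6 to 211 with a median of 102. In all 3 probes E13 array 64 was the lowest and E16 array 97 the highest of their stage. These are the arrays with the highest summed erythroid, microglial, meningeal, interneuron and radial glial markers of their stages. The lead of array 97 over the next E16 array was narrow for microglial (65.9 against 63.1) and radial glial sums (2027 against 1895). That of array 64 at E13 was narrow for radial glial sums (4982 against 4748). The leads in the other sums were wider. The log2 fold changes were 0.28, 0.19 and 0.31, with none called. A further probe with a wide spread was that of Slc15a2 (ILMN_1222763), a proton-coupled peptide carrier, which ran from 122 to 344 at E13 and from 81 to 409 with a median of 159 at E16 and had a log2 fold change of -0.11.

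**Figure D4:**
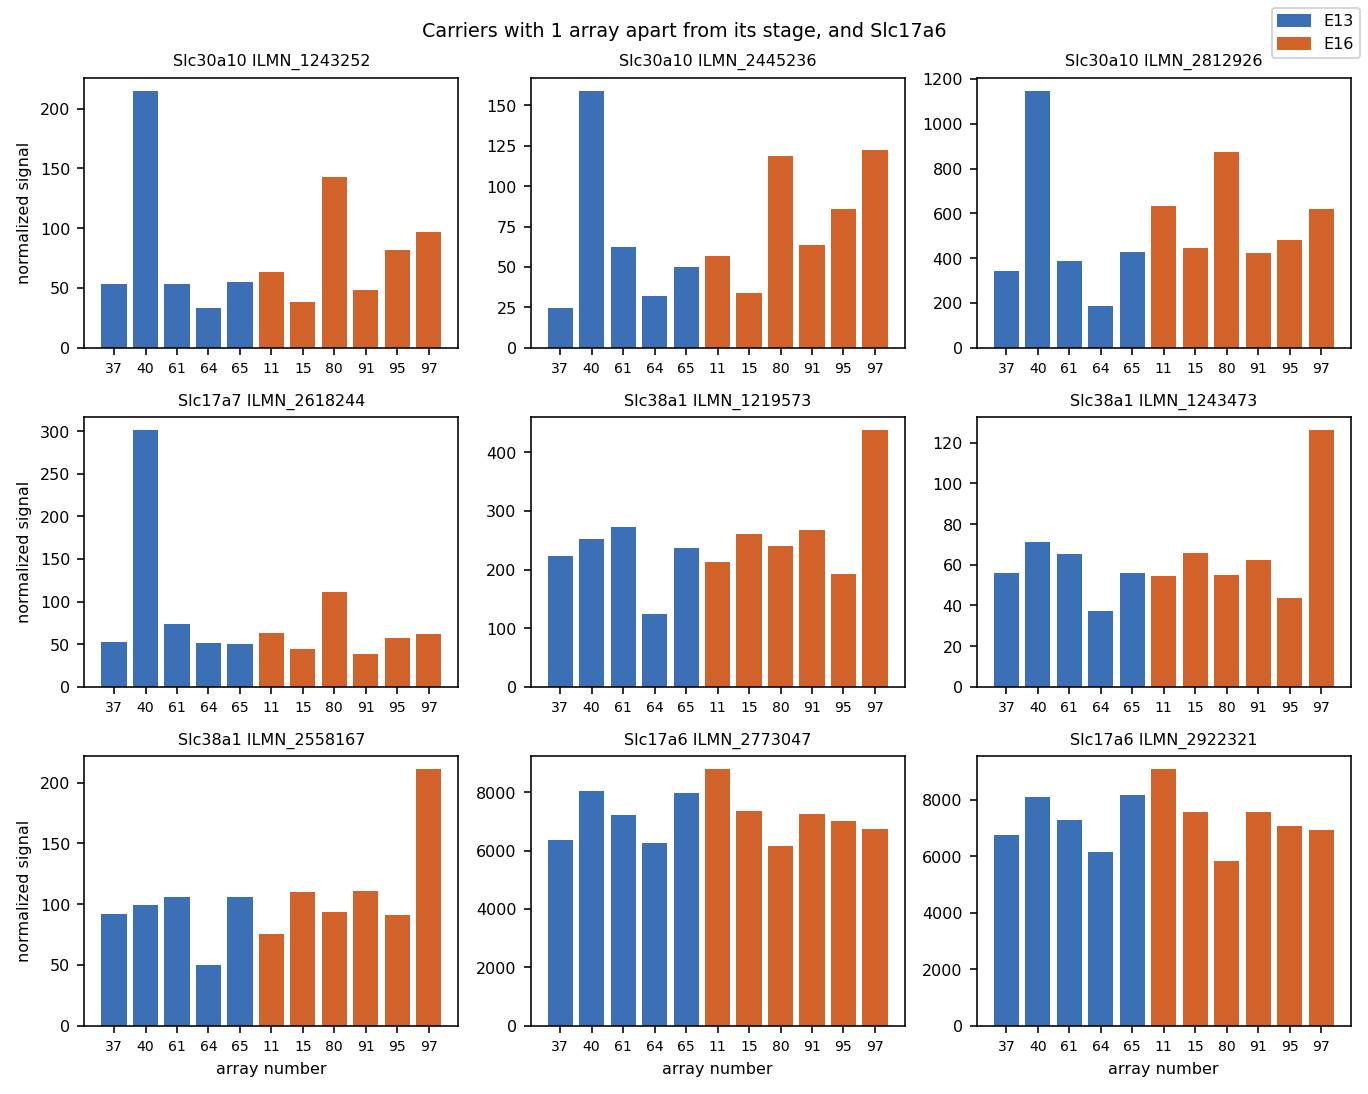
Normalized signal (linear scale, from 0) on each array for the member probes of Slc30a10, Slc17a7, Slc38a1 and Slc17a6, 1 bar per array with E13 arrays on the left. E13 array 40 stands at 1147 for Slc30a10 and 302 for Slc17a7 (ILMN_2618244), E16 array 97 at 438 for Slc38a1 (ILMN_1219573), and both Slc17a6 probes stay between 5817 and 9090 on all arrays.

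The pumps that feed these carriers and the proteins that place or regulate them were read by 25 of 32 listed genes. Among them, 2 were called higher at E16 and 1 lower. Of all tested probes 5.17% were called higher and 6.09% lower, so these few calls are not read as a result about the list. None of 16 subunits and partners of the vacuolar proton pump was called, with a median log2 fold change of 0.0024. Among 3 subunits of the Na,K-ATPase, Atp1b2 had 0.77 (adjusted p = 0.0138 from limma) and Atp1b1 had -0.75 (adjusted p = 0.0122 from limma), and Atp1b3 had -0.42 with an adjusted p of 0.00574, under 1.5-fold. Of 6 chaperones and regulators, the ubiquitin ligase Nedd4l had 0.59 with an adjusted p of 0.000801 and no overlap between the stages, and 5 were not called.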

How the data were processed

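Total RNA of sorted cells was amplified, labelled with biotin and hybridized to Illumina mouse bead arrays, per the labels. The authors deposited background-subtracted signal intensity values with a detection p-value per probe and array, and a table of log2 values that they had quantile-normalized after removing outlier probes (15825 probes, 197 of the members; log base read from the values). No source used here gives the scanner software. The control table holds 22 per-sample columns that match no sample and was not used, so no genotype comparison was made.

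Signals of probes with a detection p under 0.05 on every array were quantile-normalized and put on the log2 scale, and stage was tested with limma 3.58.1 in R 4.3.3 with a mean-variance trend and Benjamini-Hochberg adjustment over 16411 probes. Calls needed an adjusted p under 0.05 and over 1.5-fold. The test was checked on simulated data. Probe symbols came from the platform annotation (34885 probes with 1 symbol, 18 with several, 10378 with none), and all 203 members matched a RefSeq gene of GRCm38.p6 with 0 symbols changed. A brightest probe is one by its mean signal, which does not rank transcript levels between probes. Members, classes, marker and pump lists were chosen with earlier results of these data known. Named were the up to 10 largest called changes each way, up to 2 genes each way and the brightest probe of each class, 25 listed carriers (some are not reported here), genes with mixed calls, probes at the detection limit and called pumps; Slc4a8, Slc7a8, Slc15a2, Slc25a12, Slc35b3, Slc35c2, Slc38a10 and the remaining carriers were named after their values were seen. Alternatives covered background, scaling, detection filter, the authors' values, moderation, array weights and each array left out. The number of arrays sets the precision.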

Additional observations from a re-analysis of the deposited data

Results flagged for a closer look

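Of 102 groups of a named probe and a stage, 13 had 1 array far from the others by Dixon's criterion, applied to linear signals. Among independent, normally distributed groups about 1 in 20, or 5.1, would be flagged. Linear signals can be skewed and probes of 1 gene share arrays, so 13 is not read as an excess over that number. The probe of Slc17a7 had E13 array 40 at 302 with the next at 73.6, and E16 array 80 at 112 with the next at 63.6. All 3 Slc30a10 probes had E13 array 40 highest, at 215 with the next at 55.3, at 159 with the next at 62.4 and at 1147 with the next at 427. Slc38a1 had E16 array 97 highest in 3 probes, at 438, 126 and 211 with the next at 268, 65.6 and 111, and E13 array 64 lowest in 1, at 50.3 with the next at 91.6. E16 array 80 was also highest for Slc30a9, at 124 with the next at 104.0, and for Slc45a4, at 1085 with the next at 859.9. A probe of Slc29a1 had E16 array 11 at 597 with the next at 469, and Slc2a3 had E13 array 61 at 439 with the next at 373. The Slc2a3 array lies towards the E16 signals, and the rise of Slc2a3 kept its call without it.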

How the results depend on the processing

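Under 25 alternatives, 10 of the 19 called probes, of the 8 genes Slc8a1, Slc35f1, Slc48a1, Slc22a5, Slc50a1, Slc2a3, Slc43a1 and Slc2a13, kept their call in every alternative that tested them, and no named probe turned direction across a call (1253 values recomputed, 61 calls lost and 16 gained). The 12 higher and 7 lower member probes became 21 and 14 without the fold threshold, and 8 and 3 without a detection filter, where 11 of the 19 calls held. With each array left out in turn, the higher count ran from 10 to 17 and the lower from 4 to 8, lowest without E16 array 15. Chosen after seeing the data, detection of Xist as a covariate (2 E13 and 5 E16 arrays) left 11 higher and 4 lower, with 13 of the 19 calls held. The mitochondrial class median of 0.042 became -0.071 at detection p under 0.01, -0.063 on the authors' values and -0.072 with the Xist covariate, a move larger than the SD of that class median between arrays, 0.0753. Medians of 5 of the 11 classes changed sign in at least 1 alternative: those of the ion (lowest -0.025), Slc35 (-0.038), transmitter (-0.094) and other organic solute classes (highest 0.033) did so too, by less than their SD between arrays. The cause was not tested. Array numbers are not tied to replicate numbers, so pairing was examined on the authors' values alone: same-numbered E13 and E16 samples correlated at -0.25, 0.0078, -0.062, 0.17 and -0.20 in their deviations, so they share only a number, and only 1 of the 5 E13 samples correlated best with its own number. There the replicate block gave 12 higher and 4 lower member probes with 13 of the 19 calls held, and a mitochondrial median of -0.060. The calls of Slc24a2, Slc6a15, Slc2a4, Slc6a8, Slc44a2 and Slc25a10 were lost. Dim probes near the detection limit have the least certain changes.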
